A study of Homo sapiens with 18 samples.

Results

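The negative control cells of MCF10CA1h, a highly tumorigenic and metastatic human breast line, were set against those of MCF10AT1, its premalignant parent. Members were the 3 negative control libraries of each line, 6 of the 18 libraries in the series, chosen by their labels alone. Genes entered the comparison when their normalized counts averaged 10 or more in these 6 libraries, which left 15585 of the 35933 genes with values. MCF10AT1 is MCF10A, an immortalized breast epithelial line, with a stably integrated mutated HRas, and MCF10CA1h was grown out of MCF10AT1 by serial passage as mouse xenografts. Cells of both groups had been transfected with an all-in-one CRISPR/Cas9 plasmid that held a control guide and an mCherry reporter. Transfection, which the paper calls transient, and sorting were repeated, and the cells were then grown up from single cells. Their medium held horse serum, insulin, hydrocortisone, cholera toxin and EGF. A group is therefore 1 clonal line, in which a difference between MCF10CA1h and MCF10AT1 and a difference between a pair of clones cannot be told apart. The 3 libraries a, b and c are replicates of that line, and p-values measure only the spread between them, which may be technical. Negative controls of MCF10A and the METTL3 CRISPR clones of both lines (transfected with a guide against METTL3, the catalytic subunit of the m6A RNA methyltransferase) are given beside them.

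Epithelial cells hold together through cadherin junctions and claudin-based tight junctions and keep their identity through factors such as the grainyhead-like proteins. In an epithelial-mesenchymal transition they lose junction proteins and gain vimentin, fibronectin and N-cadherin. Cells of the MCF10 family are basal-like breast epithelial cells and express keratin 5, p63 and P-cadherin.

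Summed normalized counts ran from 21397790 to 31681834 in the MCF10AT1 libraries and from 23678374 to 24832975 in the MCF10CA1h libraries. The number of reads behind them is not known, so no counting interval can be given. MCF10AT1 replicates b and c lay at opposite ends, with the largest sum and the fewest genes above 0 in b (20121) and the smallest sum and the most genes above 0 in c (26330), against 24534 to 24915 in the other 4 libraries. The median SD of a gene on the log2 scale was 0.54 among the MCF10AT1 libraries and 0.185 among the MCF10CA1h libraries. The test assumed 1 spread for both lines, which these values do not bear out, so its adjusted p-values can be too small. With the spread estimated per line, an alternative chosen after seeing the data, 2299 genes were called in place of 2830, and 2225 of them were called in the same direction by both. METTL3 had normalized counts of 968, 1016 and 805 in control MCF10AT1 cells and 1022, 1102 and 1280 in control MCF10CA1h cells (log2 difference 0.29 ± 0.20 SE, adjusted p = 0.35, limma). In the METTL3 CRISPR clones it was 816, 752 and 902 in MCF10AT1 and 825, 745 and 843 in MCF10CA1h, so in MCF10AT1 the METTL3 CRISPR and control libraries overlapped and the RNA level does not check the label there. For the protein, the paper reports by Western blot a substantial knockdown in both MCF10AT1 candidate clones and a moderate one in both MCF10CA1h candidates. HRAS was listed at 12707, 20146 and 12438 in MCF10AT1 and at 12633, 9960 and 11764 in MCF10CA1h, which overlap (adjusted p = 0.34).

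All 10 markers of breast epithelial cells were present in every library, with summed levels of 112000 to 153000 in MCF10AT1 and 327000 to 353000 in MCF10CA1h. KRT5, TP63 and CDH3 were among them. Markers of other cell types were not all absent. Of 8 leukocyte markers PTPRC was at 0 in all 6 libraries, while CD14 was at 517 to 1378 and CD68 at 145 to 293, and the summed level was 891 to 1590 in MCF10AT1 and 912 to 1010 in MCF10CA1h. Of 10 endothelial markers CDH5 and VWF stayed at or below 1.46 and 9.85. PECAM1 was at 225 to 849 in MCF10AT1 and 76.7 to 123 in MCF10CA1h, ERG was listed at 0 in MCF10AT1 and at 27.9 to 36.2 in MCF10CA1h, and the summed level was 254 to 901 and 146 to 181. The part of these genes in the results was not tested.

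The lines differed in 2830 of the 15585 genes tested (18.2%, limma on log2 of the normalized count plus 1, Benjamini-Hochberg adjusted p under 0.05). Of these, 1486 (9.53% of the genes tested) were higher in MCF10CA1h and 1344 (8.62%) were lower. The median size of a called difference was 1.66 on the log2 scale, and 257 genes differed by 4 or more. Values of the 3 libraries of one line lay wholly above those of the other in 6464 genes (41.5%). The counts of each gene list below are to be read beside these shares of all genes tested. Leaving out MCF10CA1h replicate a, b or c gave 906, 844 or 1016 calls, and leaving out MCF10AT1 replicate a or c gave 1254 or 5965. The median difference over all genes tested was 0.05 with the authors' normalization and 0.16 when every library was brought to the same sum. A log2 difference of a gene near 0 in one line depends on the pseudocount of 1.

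The largest fall in MCF10CA1h was that of EMD, which encodes emerin of the inner nuclear membrane. EMD had normalized counts of 1400, 1582 and 1181 in MCF10AT1 and 1.23, 0 and 0 in MCF10CA1h (log2 difference -10.04 ± 0.43 SE, adjusted p = 0.00013). RAB25, a small GTPase of apical recycling endosomes, had 3450, 4741 and 2037 against 3.85, 0 and 10.2 (-9.73 ± 0.83, adjusted p = 0.00086). GRHL2, a grainyhead-like transcription factor that maintains the epithelial state, had 587, 383 and 963 against 1.44, 2.13 and 0 (-8.26 ± 0.57, adjusted p = 0.00049). In these 3 genes no MCF10CA1h library came near the lowest MCF10AT1 library, and genes whose groups overlapped had been left out of this ranking. CLDN7, a tight junction claudin, fell from 5002, 7370 and 4331 to 28.2, 33.3 and 61.6 (-7.09 ± 0.35). PROM2, a prominin of plasma membrane protrusions, fell from 6585, 4045 and 9262 to 38.8, 20 and 36.5 (-7.64 ± 0.38). KRTCAP3 (-8.44), the GABA transporter gene SLC6A11 (-7.83), the zinc finger gene ZNF558 (-7.58), LINC02635 (-7.57) and ACMSD (-7.45), an enzyme of tryptophan breakdown, completed the falls in genes with at least 1 library above 0 in each line. TMEM30B, a subunit of phospholipid flippases, and RBBP8NL were listed at 0 in all 3 MCF10CA1h libraries, against 172, 103 and 348 and against 248, 81.4 and 121 in MCF10AT1 (adjusted p = 0.00061 and 0.0007). In MCF10A controls ACMSD was at 0, 2.45 and 1.86 and RBBP8NL at 14.1, 1.64 and 2.80, so that these high levels were found in MCF10AT1 and not in MCF10A.

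**Figure D1:**
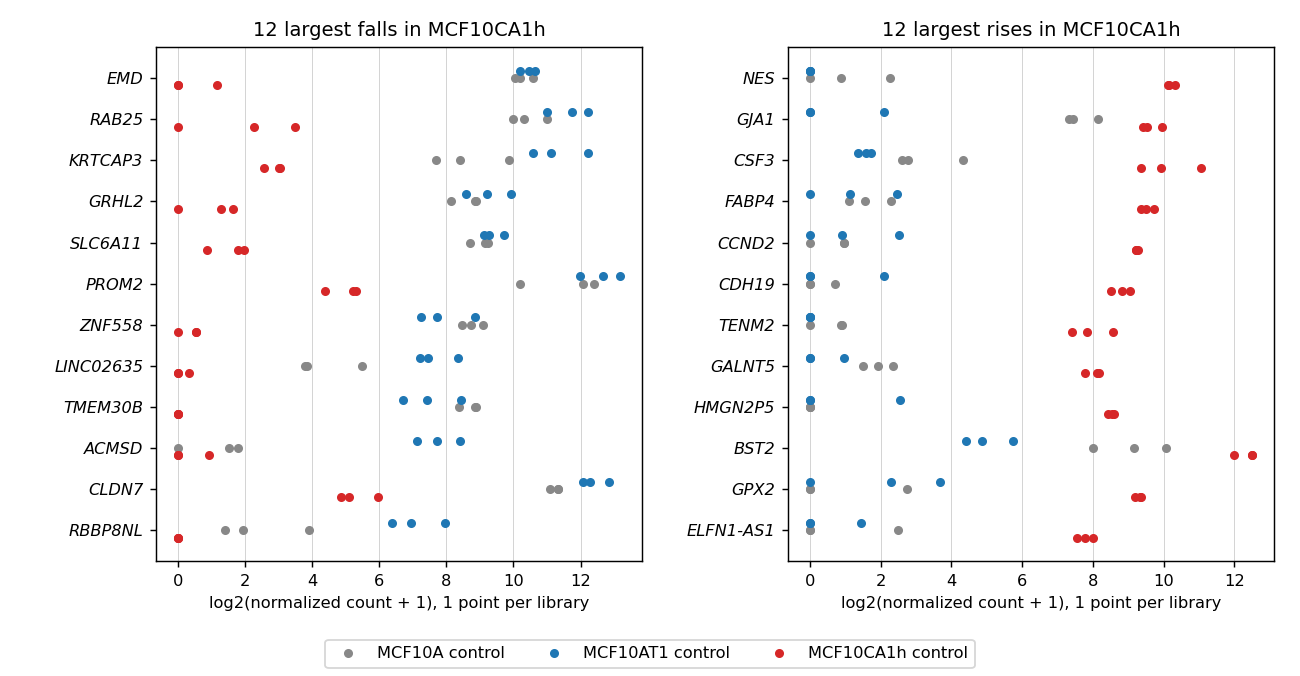
Normalized counts of the 12 largest falls (left) and the 12 largest rises (right) in MCF10CA1h, as log2(normalized count + 1) with 1 point per control library of MCF10A, MCF10AT1 and MCF10CA1h. The 24 genes were taken from called genes whose groups did not overlap, so the gap between MCF10CA1h and MCF10AT1 points was set by the choice. MCF10A lies between the lines for GJA1 and BST2 and beside MCF10CA1h for ACMSD.

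The largest rise was that of NES. NES, the intermediate filament nestin of progenitor cells, was listed at 0 in all 3 MCF10AT1 libraries and at 1138, 1281 and 1113 in MCF10CA1h (adjusted p = 7e-05). GJA1, the gap junction protein connexin 43, had 0, 0 and 3.26 against 736, 983 and 686 (log2 difference 8.93 ± 0.62 SE, adjusted p = 0.00049). CCND2, cyclin D2, which drives the G1 phase with CDK4 and CDK6, had 4.72, 0 and 0.86 against 596, 595 and 622 (8.10 ± 0.63, adjusted p = 0.00067). All 3 genes were near 0 in MCF10AT1 and at 595 or more in every MCF10CA1h library. FABP4, a fatty acid binding protein best known from adipocytes, had 0, 4.51 and 1.18 against 659, 852 and 725 (8.34 ± 0.61). CDH19, an atypical cadherin, had 3.23, 0 and 0 against 530, 453 and 362 (8.10 ± 0.63). GPX2, a glutathione peroxidase of epithelial cells, had 0, 11.7 and 3.93 against 652, 645 and 579 (7.30 ± 0.84). Of the 4 adipocyte markers tested, PLIN4, a lipid droplet perilipin, rose as well, from 98.7, 23.4 and 111 to 1002, 982 and 939 (3.91 ± 0.56). LPL, lipoprotein lipase, was lower, with 53.7, 80.9 and 69.0 against 12.1, 27.8 and 8.80 (-2.14 ± 0.49), and PPARG did not pass the test (0.46, adjusted p = 0.37). ADIPOQ and LEP, at or below 3.01 and 0.88, were too low to be tested. TENM2, a teneurin adhesion protein, was listed at 0 in MCF10AT1 and at 227, 382 and 169 in MCF10CA1h. The colony-stimulating factor CSF3 (8.57 ± 0.47), the glycosyltransferase GALNT5 (7.71 ± 0.47), the pseudogene HMGN2P5 (7.67 ± 0.72), the antiviral membrane protein BST2 (7.32 ± 0.37) and ELFN1-AS1 (7.30 ± 0.54) completed the group. HMGN2P5 can share reads with HMGN2 and its value is uncertain. None of these 24 genes lost its call when 1 library was left out, which their choice for large differences without overlap favoured.

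Of the 35 genes of epithelial adhesion and identity that were tested, 15 were lower in MCF10CA1h and none was higher, with a list median of -0.67. The lower genes included claudins, transcription factors and the protease gene PRSS8, and did not include the E-cadherin gene. CDH1 had normalized counts of 3475, 2105 and 6138 in MCF10AT1 and 2974, 4148 and 3582 in MCF10CA1h (log2 difference -0.01 ± 0.38 SE, adjusted p = 0.99), which overlap. Its difference was above 0 with equal library sums (0.11), without MCF10AT1 replicate c (0.39) and without MCF10CA1h replicate a (0.12). CLDN4, another tight junction claudin, had 19484, 10564 and 12606 against 317, 246 and 586 (-5.26 ± 0.37, adjusted p = 0.00049). PRSS8, the membrane protease prostasin, had 2579, 3345 and 2413 against 22.8, 28.7 and 26.5 (-6.68 ± 0.24, adjusted p = 7.1e-05). OVOL1, a zinc finger repressor of mesenchymal genes, had 96.5, 80.8 and 211 against 0.77, 0.76 and 2.67 (-5.72 ± 0.57). For each the 3 MCF10CA1h libraries lay below all MCF10AT1 libraries. CGN, the tight junction protein cingulin (-3.71), and CD24, a surface glycoprotein (-3.03), were lower as well. CLDN8, MUC1, TJP3, OVOL2, ESRP1 and EPCAM were called with all libraries (-4.06 to -0.76) but lost the call without MCF10AT1 replicate a and without any single MCF10CA1h library, which left 9 lower genes in each of these 4 fits. Without MCF10AT1 replicate c, 5 members were higher and 15 lower. The tight junction scaffold gene TJP1, the junction adhesion molecule F11R and the splicing factor ESRP2 did not pass the test (-0.01, 0.33 and 0.23). None of the 10 desmosome genes and none of the 10 luminal keratins and factors passed it either, with medians of 0.23 and 0.32.

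Mesenchymal genes moved upward as a minority, 8 of 27 higher and 3 lower, with a median of 0.79. VIM, the intermediate filament vimentin, had 3055, 4640 and 4069 in MCF10AT1 and 28825, 27287 and 23486 in MCF10CA1h (log2 difference 2.77 ± 0.22 SE, adjusted p = 0.0007). FN1, fibronectin, had 70.5, 65.1 and 81.9 against 2594, 3453 and 3219 (5.39 ± 0.22, adjusted p = 0.00012). CDH2, N-cadherin, had 0.72, 0 and 4.1 against 115, 107 and 99.0 (5.71 ± 0.66, adjusted p = 0.0024). Every MCF10CA1h library lay above every MCF10AT1 library in these genes, and MCF10A controls lay between them, at 8203 to 14966 for VIM, 227 to 479 for FN1 and 10.9 to 14.5 for CDH2. SPARC, a collagen-binding matrix protein, had 108, 27.2 and 39.5 against 5841, 4354 and 5079 (6.66 ± 0.47). THY1, a surface glycoprotein, had 1.91, 1.81 and 0.87 against 199, 290 and 214 (6.55 ± 0.41). MMP2, a gelatinase, had 69.7, 43.4 and 49.0 against 539, 365 and 437 (3.04 ± 0.30). Of the transcription factors that drive the transition, SNAI1 had 464, 172 and 348 against 88.5, 95.9 and 87.1 (-1.73 ± 0.38, adjusted p = 0.022) and was lower, and ZEB1 (2.02, adjusted p = 0.25), ZEB2 (3.08, 0.057), SNAI2 (0.66, 0.23) and TWIST1 (-0.48, 0.32) did not pass the test. ACTA2, smooth muscle actin, had 1425, 1118 and 807 against 89.7, 90.1 and 109 and was lower (-3.49 ± 0.27). CTNNB1, beta-catenin, had 4065, 2272 and 5299 against 8497, 8102 and 7663 and was higher (1.14 ± 0.31, adjusted p = 0.045). CTNNB1, SNAI1 and S100A4 lost the call without MCF10AT1 replicate a and without any single MCF10CA1h library, and FBN1 without MCF10CA1h replicate a or b. The list gave 7 called members without MCF10CA1h replicate a or b and 21 without MCF10AT1 replicate c.

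**Figure D2:**
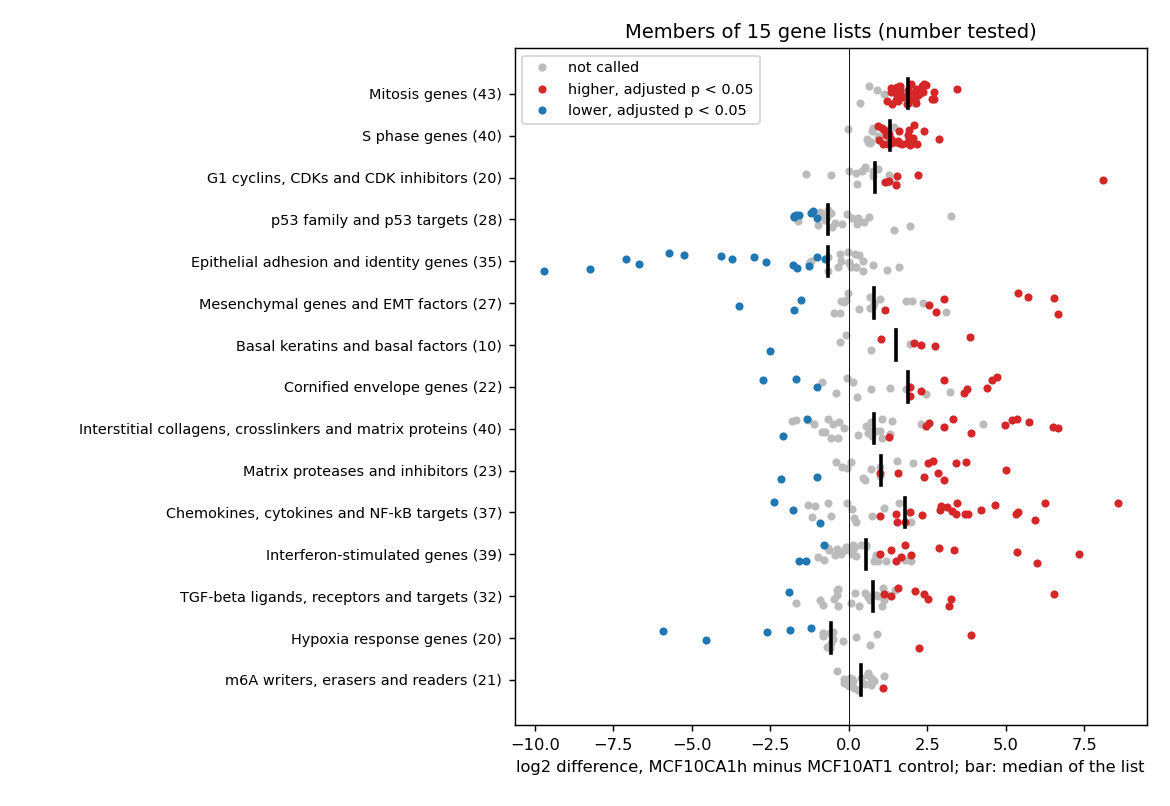
Log2 difference (MCF10CA1h minus MCF10AT1 control) of every tested member of 15 gene lists, with 1 point per gene, red and blue for genes called higher and lower and a black bar at the list median. Mitosis genes lie wholly to the right of 0, the called epithelial genes all lie to the left, and the chemokine list reaches 8.57 in CSF3.

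Matrix genes gave 12 higher and 2 lower among 40, with a median of 0.81. COL6A1, a chain of the microfibrillar collagen VI, had normalized counts of 66.5, 41.1 and 77 in MCF10AT1 and 981, 796 and 915 in MCF10CA1h (log2 difference 3.89 ± 0.29 SE, adjusted p = 0.00061). Its partner chain COL6A2 was listed at 0 in all MCF10AT1 libraries and at 50.1, 47.9 and 60.6 in MCF10CA1h. FBN2, an elastic fibre fibrillin, had 12.1, 6.56 and 29.4 against 1328, 1664 and 997 (6.50 ± 0.51). COL3A1, a chain of fibrillar collagen, rose from 0, 0 and 2.25 to 73.6, 42.0 and 68.3, whereas COL1A1 (0.62, adjusted p = 0.45) did not pass the test. LUM, the proteoglycan lumican, was listed at 0 in MCF10AT1 and at 52.3, 16.3 and 33.1 in MCF10CA1h. COL5A3, FBN1, DCN, LOXL1 and CCN5 lost their calls when single libraries were left out, and the list had 9 called members without MCF10CA1h replicate a or b and 24 without MCF10AT1 replicate c. Of the fibroblast markers, 5 of the 7 tested were higher (COL3A1, DCN, LUM, FAP and THY1). Of these 5, 2 lie on chromosome 12, whose genes as a whole were higher in MCF10CA1h, as described further on. The summed level of all 10 fibroblast markers was 470 to 740 in MCF10AT1 and 1480 to 1820 in MCF10CA1h. In MCF10A controls DCN was at 753 to 1745 and FAP at 206 to 699, which overlap MCF10CA1h. COL3A1, LUM and THY1 were at or below 2.31, 0 and 36.5 there. The fibroblast markers COL1A2, PDGFRA and TCF21 stayed at or below 1.77, 5.44 and 0.73 in all 6 libraries.

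Matrix proteases and their inhibitors gave 10 higher and 2 lower among 23. ADAMTS15, a proteoglycan-cleaving protease, had 10.3, 12.5 and 17.1 in MCF10AT1 and 179, 213 and 173 in MCF10CA1h (log2 difference 3.75 ± 0.34 SE, adjusted p = 0.001). PLAT, tissue plasminogen activator, had 670, 254 and 743 against 4150, 3031 and 3690 (2.84 ± 0.41). The inhibitors rose beside them. SERPINE2, a thrombin and plasminogen activator inhibitor, had 765, 842 and 1451 against 6559, 7525 and 5071 (2.69 ± 0.29), and TIMP3 had 557, 827 and 523 against 3700, 3652 and 3343 (2.52 ± 0.23). ADAMTS12, MMP19 and MMP2 were higher in all fits without 1 library, while SERPINB2, MMP15, TIMP2 and ADAMTS9 were lost without MCF10AT1 replicate a or any MCF10CA1h library, which left 7 or 8 calls. MMP14, the membrane-bound activator of MMP2, did not pass the test (0.52, adjusted p = 0.15).

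Of the 10 basal keratins and basal factors tested, 5 were higher in MCF10CA1h and 1 was lower, with a median of 1.49. KRT5, the keratin of the basal layer, had 48735, 47281 and 36863 in MCF10AT1 and 213314, 214804 and 215309 in MCF10CA1h (log2 difference 2.29 ± 0.23 SE, adjusted p = 0.0013). KRT14, its partner keratin, had 99.2, 77.1 and 43.0 against 836, 1027 and 1247 (3.87 ± 0.35). In MCF10A controls KRT5 was at 98452 to 103397, between the lines, and KRT14 at 2278 to 2699, above both. KRT15 went the other way, with 91624, 75220 and 27151 against 10981, 5305 and 17334 (-2.51 ± 0.57, adjusted p = 0.024), and lost its call without MCF10AT1 replicate a and without MCF10CA1h replicate a or b. MCF10AT1 replicate c was the lowest MCF10AT1 library for KRT15 and still above the highest MCF10CA1h library. KRT6B and KRT6C (2.74 and 2.08) are near-identical copies of KRT6A (0.69, adjusted p = 0.054) and can share reads. KRT17 (1.02) lost its call without MCF10AT1 replicate a or any MCF10CA1h library. KRT5, KRT6B and KRT6C lie on chromosome 12, whose genes as a whole were higher in MCF10CA1h, as described further on. Of the 6 members on other chromosomes 2 were higher and 1 lower, with a median of 0.47.

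Genes of the cornified envelope, the crosslinked shell of differentiating keratinocytes, gave 9 higher and 3 lower among 22. SPRR1B, an envelope precursor, had 86.3, 193 and 60.3 in MCF10AT1 and 855, 1252 and 1943 in MCF10CA1h (log2 difference 3.66 ± 0.48 SE, adjusted p = 0.0039). TGM1, the transglutaminase that crosslinks the envelope, was lower, with 763, 554 and 416 against 114, 92.3 and 56.2 (-2.72 ± 0.36). SPRR2D (3.76), LCE3D (4.56) and LYPD3 (1.95) were higher in every fit without 1 library, though SPRR2D can share reads with other SPRR2 genes. With single libraries left out the list had from 5 called members (without MCF10CA1h replicate b) to 16 (without MCF10AT1 replicate c), and 6 without MCF10AT1 replicate a or MCF10CA1h replicate c.

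Mitosis genes rose together. Of 43 tested, 38 were higher in MCF10CA1h and none was lower, with a median of 1.89, and in all 43 the MCF10CA1h libraries lay above the MCF10AT1 libraries. Among all genes tested 9.53% were higher, and the groups did not overlap, in either direction, in 41.5%. PLK1, the kinase that drives mitotic entry and spindle assembly, had normalized counts of 1036, 781 and 673 in MCF10AT1 and 5471, 4884 and 4976 in MCF10CA1h (log2 difference 2.64 ± 0.22 SE, adjusted p = 0.00073). KIF23, a kinesin of the central spindle, had 689, 184 and 356 against 2423, 2231 and 2354 (2.71 ± 0.44, adjusted p = 0.0076). KIF20A, a kinesin of cytokinesis, had 648, 354 and 355 against 4681, 4700 and 4944 (3.46 ± 0.27). MCF10AT1 replicate a was the highest of its group in all 3, and still below every MCF10CA1h library. MKI67, the proliferation marker Ki-67, had 2324, 3187 and 2393 against 11634, 11509 and 10434 (2.10 ± 0.20). CCNA2, cyclin A2, had 331, 225 and 248 against 1705, 1807 and 1662 (2.70 ± 0.22). FOXM1, the transcription factor of late cell cycle genes, had 1248, 1077 and 913 against 5690, 5673 and 5543 (2.40 ± 0.19). CCNB2, CDC25B, BUB3, KIF14 and TOP2A were the members that did not pass the test, with differences of 0.35 to 2.08. The count was 20, 19 and 22 without MCF10CA1h replicate a, b and c, and 15 when the MCF10A controls entered the fit, in which replicates of MCF10A spread widely for these genes (MKI67 at 1144, 228 and 40.2). FOXM1 and ESPL1 lie on chromosome 12, and 36 of the 41 members elsewhere were higher.

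Late cell cycle promoters often carry a CHR element (cell cycle genes homology region), whose core is TTTGAA. Promoters of 250 bases before to 50 after the start site were taken from RefSeq (GRCh38.p14), where 11153 of the 15585 genes tested had one. TTTGAA on either strand was in 23 of the 32 higher mitosis genes with a promoter, in 1 of the 23 higher S phase genes and in 5324 of all 35116 promoters (15.2%). It was also in 3 of 4 mitosis genes that did not pass the test. For this motif and those below, a listed gene counted when any of its promoters matched. The share over all promoters is per promoter instead, with 35116 promoters of 27305 genes, so both are not in the same unit. A match says only that the letters are there. The promoters of PLK1 (chr16:23678639-23678938, forward strand) and KIF23 (chr15:69414099-69414398, forward strand) are shown with the match in capitals.
PLK1: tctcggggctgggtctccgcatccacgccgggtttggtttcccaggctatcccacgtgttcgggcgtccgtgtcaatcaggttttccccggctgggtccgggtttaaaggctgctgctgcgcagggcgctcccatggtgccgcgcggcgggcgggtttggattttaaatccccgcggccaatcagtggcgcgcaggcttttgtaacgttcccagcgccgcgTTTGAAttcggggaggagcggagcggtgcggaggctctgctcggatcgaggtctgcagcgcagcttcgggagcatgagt
KIF23: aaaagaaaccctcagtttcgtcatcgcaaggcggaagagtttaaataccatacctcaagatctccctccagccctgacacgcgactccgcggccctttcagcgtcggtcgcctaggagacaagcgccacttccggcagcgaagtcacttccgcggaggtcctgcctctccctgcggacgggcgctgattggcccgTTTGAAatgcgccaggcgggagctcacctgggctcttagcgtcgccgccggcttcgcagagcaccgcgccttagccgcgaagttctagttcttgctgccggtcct

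S phase genes gave 27 higher and none lower among 40, with a median of 1.31. MCM2, a subunit of the replicative helicase, had 1207, 1250 and 858 in MCF10AT1 and 4050, 4001 and 3734 in MCF10CA1h (log2 difference 1.85 ± 0.21 SE, adjusted p = 0.0022). CDC6, which loads that helicase, had 464, 550 and 433 against 1846, 2127 and 2093 (2.07 ± 0.19). RRM2, a ribonucleotide reductase subunit, had 1174, 1857 and 1419 against 5671, 7091 and 5241 (2.03 ± 0.24). MCM10 (2.40), CLSPN (2.19) and UHRF1 (2.04) were higher in every fit without 1 library, whereas GINS4 (2.87) lost its call without MCF10AT1 replicate a or any MCF10CA1h library. PCNA (0.64, adjusted p = 0.16) and POLE2 (-0.03, 0.96) did not pass the test. The count was 16 without MCF10AT1 replicate a and 14, 13 and 14 without MCF10CA1h replicate a, b and c.

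Among the 20 G1 genes tested, 6 were higher and none lower (30.0% called, against 18.2% of all genes tested). Besides CCND2, CDK2 had 383, 359 and 518 in MCF10AT1 and 2089, 1921 and 1727 in MCF10CA1h (log2 difference 2.20 ± 0.22 SE, adjusted p = 0.0013). CDKN2C, E2F2, CDKN1B and CDK4 (1.52, 1.5, 1.27 and 1.14) lost their calls when any MCF10CA1h library was left out, which left CCND2 and CDK2, and 3 members were called without MCF10AT1 replicate a and 13 without MCF10AT1 replicate c. CCND2, CDK2, CDKN1B and CDK4 all lie on chromosome 12. CCND1 had a difference of 0.01 (adjusted p = 0.99). Of 28 genes of the p53 family and its targets, 7 were lower and none higher, with a median of -0.67. BBC3, the apoptosis inducer PUMA, had 609, 555 and 465 against 195, 130 and 156 (-1.76 ± 0.25, adjusted p = 0.0049). TP53I3, a quinone oxidoreductase, had 4328, 4976 and 2433 against 1143, 1121 and 1228 (-1.69 ± 0.29) and lost its call without MCF10CA1h replicate a or b. BAX, GDF15, ZMAT3, TP53INP1 and MDM4 lost their calls without any single MCF10CA1h library. The list had 1, 1 and 2 called members without MCF10CA1h replicate a, b and c, 3 without MCF10AT1 replicate a, 15 without b and 14 without c. CDKN1A (-0.55, adjusted p = 0.083) did not pass the test.

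Chemokines, cytokines and NF-kB targets gave 21 higher and 3 lower among 37, with a median of 1.79. CSF3, granulocyte colony-stimulating factor, had normalized counts of 1.97, 1.55 and 2.28 in MCF10AT1 and 2140, 973 and 660 in MCF10CA1h (log2 difference 8.57 ± 0.47 SE, adjusted p = 0.00021). CXCL1, a chemokine that attracts neutrophils, had 155, 76.4 and 78.5 against 6101, 3766 and 2758 (5.34 ± 0.39, adjusted p = 0.00052). ICAM1, the leukocyte adhesion receptor, had 3.34, 3.12 and 9.21 against 510, 445 and 357 (6.26 ± 0.45). In CSF3 and CXCL1 the highest value was that of MCF10CA1h replicate a, as it was in CXCL2, CXCL3, CSF2 and IL1B, and the groups did not overlap. CXCL3 had 23.1, 8.74 and 21.2 against 1163, 601 and 539 (5.38 ± 0.47), and CXCL2 had 230, 80.0 and 277 against 4042, 1814 and 1856 (3.79 ± 0.53). CSF2 was listed at 0 in MCF10AT1 and at 133, 53.4 and 31.1 in MCF10CA1h. IL1B, interleukin 1 beta, had 66.5, 48.2 and 120 against 1324, 680 and 553 (3.43 ± 0.45), and SAA1, an acute phase apolipoprotein, had 532, 722 and 218 against 5025, 4390 and 5026 (3.45 ± 0.42). TNFAIP2, also an NF-kB target, was lower with 3041, 2390 and 2551 against 758, 718 and 855 (-1.77 ± 0.19). PTGS2, TNFAIP3, CXCL8, IL6 and NFKB1 were called with all libraries (0.98 to 4.65) and lost the call without MCF10AT1 replicate a and without MCF10CA1h replicate a or b. The list had 14 called members without MCF10AT1 replicate a and 12, 13 and 15 without MCF10CA1h replicate a, b and c.

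The promoters of CXCL1, CXCL2 and CXCL3, which lie in 1 cluster on chromosome 4, each hold the same 10-base NF-kB site, printed in capitals, at nearly the same distance from the start. That letter string, on either strand, was in 5 of the 16 higher members of the list with a promoter (CXCL1, CXCL2, CXCL3, NFKBIA and NFKB1), in 1 of 7 that did not pass the test and in 51 of all 35116 promoters (0.145%). Capitals mark the match in CXCL1 (chr4:73869143-73869442, forward strand), CXCL2 (chr4:74099146-74099445, reverse strand) and CXCL3 (chr4:74038640-74038939, reverse strand). The transcripts of these 3 paralogs are alike as well and can share reads.
CXCL1: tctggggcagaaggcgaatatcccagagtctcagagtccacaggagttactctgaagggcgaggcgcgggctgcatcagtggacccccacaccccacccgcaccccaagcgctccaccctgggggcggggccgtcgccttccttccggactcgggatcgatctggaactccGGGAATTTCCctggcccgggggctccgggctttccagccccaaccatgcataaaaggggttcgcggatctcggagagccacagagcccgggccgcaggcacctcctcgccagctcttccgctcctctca
CXCL2: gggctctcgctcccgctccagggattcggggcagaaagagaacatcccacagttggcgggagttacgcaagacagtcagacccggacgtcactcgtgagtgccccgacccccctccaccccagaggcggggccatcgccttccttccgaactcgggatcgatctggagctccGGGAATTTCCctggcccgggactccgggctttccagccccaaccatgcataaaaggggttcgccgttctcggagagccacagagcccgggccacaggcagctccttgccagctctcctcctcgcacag
CXCL3: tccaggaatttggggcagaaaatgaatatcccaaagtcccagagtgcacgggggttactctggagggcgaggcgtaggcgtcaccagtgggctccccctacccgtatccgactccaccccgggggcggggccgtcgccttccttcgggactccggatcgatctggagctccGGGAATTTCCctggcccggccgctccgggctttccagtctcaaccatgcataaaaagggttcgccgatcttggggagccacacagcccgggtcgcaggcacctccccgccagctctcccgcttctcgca

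Interferon-stimulated genes were split, with 11 higher, 3 lower and 25 not called among 39 and a median of 0.54. BST2, the antiviral membrane protein tetherin, had 52.3, 20.1 and 27.8 in MCF10AT1 and 5768, 4041 and 5725 in MCF10CA1h (log2 difference 7.32 ± 0.37 SE, adjusted p = 0.00017). OAS2, a sensor of double-stranded RNA, had 14.9, 14.3 and 23.7 against 1191, 1283 and 1025 (6.0 ± 0.29). UBE2L6, the E2 enzyme of ISG15 conjugation, had 23.4, 14 and 22.6 against 952, 757 and 845 (5.37 ± 0.30). MCF10A controls had BST2 at 1077, 256 and 568, between the lines. Of the classical members, ISG15 (0.24, adjusted p = 0.69), IFIT1 (0.14, 0.83) and MX1 (0.55, 0.64) did not pass the test. IRF9, a subunit of the interferon response factor, was lower with 404, 383 and 329 against 150, 118 and 165 (-1.37 ± 0.24, adjusted p = 0.011), a call lost without MCF10CA1h replicate a or b. OAS2, OAS3 and OASL lie on chromosome 12, and 8 of the 34 members elsewhere were higher and 3 lower. With 1 library left out the list had 7 called members without MCF10AT1 replicate a, 5, 6 and 7 without MCF10CA1h replicate a, b and c and 21 without MCF10AT1 replicate c. The interferon-stimulated response element, searched on both strands as GAAA, any 2 bases and GAAA, was in 5 of 8 higher members with a promoter, in 16 of 20 that did not pass the test and in 1255 of all 35116 promoters (3.57%). The promoter of BST2 (chr19:17405581-17405880, reverse strand) is shown for its 2 overlapping matches, in capitals.
BST2: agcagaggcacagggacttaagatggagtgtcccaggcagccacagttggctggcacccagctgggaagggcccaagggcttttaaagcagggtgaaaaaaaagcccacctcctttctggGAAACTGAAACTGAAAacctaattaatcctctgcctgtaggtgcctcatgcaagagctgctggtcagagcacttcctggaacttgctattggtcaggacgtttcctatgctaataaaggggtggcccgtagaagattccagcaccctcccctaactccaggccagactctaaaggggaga

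In antigen processing, 4 of 17 genes were higher and none lower (23.5% called, against 18.2% of all genes tested). PSMB9, an immunoproteasome subunit, had 9.63, 22.4 and 9.39 in MCF10AT1 and 279, 187 and 214 in MCF10CA1h (log2 difference 4.03 ± 0.42 SE, adjusted p = 0.0016), and TAP2, a peptide transporter subunit, had 872, 1267 and 1056 against 2931, 3299 and 2945 (1.54 ± 0.21). HLA-B and HLA-C (-0.63 and 0.24) did not pass the test, and reads of these related genes can be shared. ERAP1 and CALR lost their calls without MCF10AT1 replicate a or any MCF10CA1h library.

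Among 10 RAS genes and kinases of the MAPK cascade 1 was higher and 2 were lower (30.0% called, against 18.2% of all genes tested). BRAF and MAPK3 were the lower ones (-0.84 and -0.99), and both calls were lost without MCF10AT1 replicate a or any MCF10CA1h library. Of 20 feedback and immediate response genes, DUSP6, IER3 and PHLDA1 were higher (1.93, 0.98 and 0.95), with each call lost in the same fits and that of IER3 also without MCF10AT1 replicate b. DUSP4, SPRY2, SPRY4 and EGR1 (-0.27, -0.76, 0.72 and -0.26) did not pass the test.

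In the EGF receptor family, NRG1, a ligand of ERBB3 and ERBB4, had 35.6, 9.03 and 32.8 in MCF10AT1 and 234, 334 and 201 in MCF10CA1h (log2 difference 3.44 ± 0.54 SE, adjusted p = 0.0068). ERBB3, its receptor, had 846, 870 and 831 against 57.2, 165 and 165 (-2.86 ± 0.42, adjusted p = 0.0054). Ligand and receptor moved in opposite directions, and ERBB3 was lower although it lies on chromosome 12. EGFR (0.09, adjusted p = 0.92) did not pass the test. EREG and NRG4 were higher and ERBB2 lower with all libraries (2.52, 1.99 and -1.07), calls lost without MCF10CA1h replicate a or b.

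Downstream of these receptors, 2 of 21 PI3K, AKT and FOXO genes were lower and none was higher (9.52% called, against 18.2% of all genes). IRS1, the insulin receptor substrate, had 387, 285 and 544 in MCF10AT1 and 49.9, 91.0 and 51.1 in MCF10CA1h (log2 difference -2.65 ± 0.36 SE). PIK3CA (-0.33) and AKT1 (-0.20) did not pass the test. Of the IGF binding proteins, IGFBP4 had 25.3, 72.3 and 21.4 against 944, 608 and 928 (4.53 ± 0.48), and IGFBP7 had 302, 191 and 242 against 888, 883 and 971 (1.92 ± 0.24). IGFBP6 and IGFBP3 (2.50 and 1.62) lost their calls without any 1 MCF10CA1h library.

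TGF-beta family genes gave 9 higher and 1 lower among 32 (31.2% called, against 18.2% of all genes tested). BMP7, a bone morphogenetic protein, had 0, 0 and 2.84 in MCF10AT1 and 129, 146 and 159 in MCF10CA1h (log2 difference 6.54 ± 0.64 SE, adjusted p = 0.0013). SMAD6 and SMAD7, the inhibitory SMADs, had 24.5, 11.2 and 11.9 against 190, 135 and 131 (3.24 ± 0.41) and 98.6, 113 and 128 against 678, 422 and 404 (2.10 ± 0.28). NOG, an antagonist of bone morphogenetic proteins, was lower (-1.91), a call lost without MCF10CA1h replicate a or b, as that of ID3 (2.51) was. The ligands TGFB1, TGFB2 and TGFB3 (-0.83, 1.12 and -0.34) did not pass the test. The list had 6 called members without MCF10AT1 replicate a, 4, 3 and 6 without MCF10CA1h replicate a, b and c and 20 without MCF10AT1 replicate c.

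In the Notch pathway, 4 of 16 genes were higher and 1 lower (31.2% called, against 18.2% of all genes tested). NOTCH3, a receptor, had 585, 484 and 1586 in MCF10AT1 and 36.0, 71.0 and 58.3 in MCF10CA1h (log2 difference -3.83 ± 0.49 SE, adjusted p = 0.0035), and NRARP, a target and feedback gene, had 146, 63.6 and 110 against 850, 427 and 484 (2.46 ± 0.40). DLL1, LFNG and HEY1 (5.09, 2.02 and 2.0) lost their calls without MCF10CA1h replicate a or b. Of 30 WNT genes, 7 were higher and 3 lower (33.3% called, against the same 18.2%). FZD7, a receptor, had 129, 167 and 206 against 818, 942 and 838 (2.39 ± 0.24) and was the member called in every fit without 1 library.

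Hypoxia response genes gave 2 higher and 5 lower among 20. CA9, a carbonic anhydrase and classical target, had 1210, 2833 and 1669 in MCF10AT1 and 99.4, 4.78 and 42.0 in MCF10CA1h (log2 difference -5.94 ± 0.96 SE, adjusted p = 0.0075). EGLN3, an oxygen-sensing prolyl hydroxylase, had 534, 196 and 291 against 24.9, 4.22 and 16.9 (-4.55 ± 0.66). CA12, another carbonic anhydrase, went up from 174, 140 and 536 to 3479, 4207 and 2958 (3.89 ± 0.49). VEGFA (-0.83, adjusted p = 0.25) did not pass the test. KDM3A and ADM2 lost their calls in most fits without 1 library, including all without an MCF10CA1h library.

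Of 21 writers, erasers and readers of m6A, HNRNPA2B1 alone was called (4.76%, against 18.2% of all genes tested). It was higher, with 12388, 9919 and 13918 in MCF10AT1 and 25062, 25299 and 25879 in MCF10CA1h (log2 difference 1.09 ± 0.20 SE, adjusted p = 0.013), a call lost without MCF10AT1 replicate a or any MCF10CA1h library. METTL14 (0.69, adjusted p = 0.41), WTAP (0.51, 0.18), FTO (0.60, 0.31) and ALKBH5 (0.05, 0.89) did not pass the test. The list had 9 higher members, METTL14 and FTO among them, without MCF10AT1 replicate c, 2 without b, and none without MCF10AT1 replicate a or any MCF10CA1h library. Of all 15585 genes tested, 3284 were higher without MCF10AT1 replicate c, against 1486 with all libraries.

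Genes of 4 chromosomes stood apart as groups. On chromosome 12 the median log2 difference of 842 genes was 0.662, and 198 of them (23.5%) were higher and 20 lower. Relative to all genes of the same library, the mean log2 level of chromosome 12 genes was -0.112, -0.121 and -0.034 in control MCF10AT1 cells and 0.530, 0.539 and 0.474 in control MCF10CA1h cells. It was 0.597, 0.571 and 0.561 in METTL3 CRISPR MCF10CA1h cells, -0.090, -0.068 and -0.020 in METTL3 CRISPR MCF10AT1 cells and 0.003, 0.066 and 0.047 in MCF10A controls. The 6 MCF10CA1h libraries thus lay above the other 9. The rise ran along the whole chromosome: windows of 20 Mb with at least 20 genes had medians of 0.55 to 0.81.

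Chromosomes 2, 7 and 14 went the other way, with medians of -0.385, -0.391 and -0.446. On chromosome 14 the relative level was 0.420, 0.443 and 0.417 in control MCF10AT1 cells and -0.052, -0.041 and -0.031 in control MCF10CA1h cells, and the libraries of METTL3 CRISPR MCF10AT1, METTL3 CRISPR MCF10CA1h and MCF10A lay between -0.081 and 0.080. Chromosome 7 had the same pattern, at -0.036, -0.031 and 0.025 in control MCF10AT1 cells and at -0.486 to -0.348 in all 12 other libraries of these groups. On these 2 chromosomes control MCF10AT1 cells were the group that stood apart. On chromosome 2 the level was 0.454 to 0.528 in MCF10A, 0.204 to 0.334 in control MCF10AT1 and -0.151 to -0.100 in control MCF10CA1h. METTL3 CRISPR MCF10AT1 cells lay lowest there, at -0.236 to -0.171, and METTL3 CRISPR MCF10CA1h cells lay at -0.101 to -0.066. Windows had medians of -0.59 to -0.22 on chromosome 2, -0.55 to -0.32 on chromosome 7 and -0.53 to -0.29 on chromosome 14. With 3 libraries against 3 an exact permutation test of a chromosome's mean cannot go below 0.10, a value that these 4 and 6 further chromosomes reached (two-sided, 0.23 adjusted over 23 chromosomes). A change in copy number cannot be told apart here from a change in expression.

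**Figure D3:**
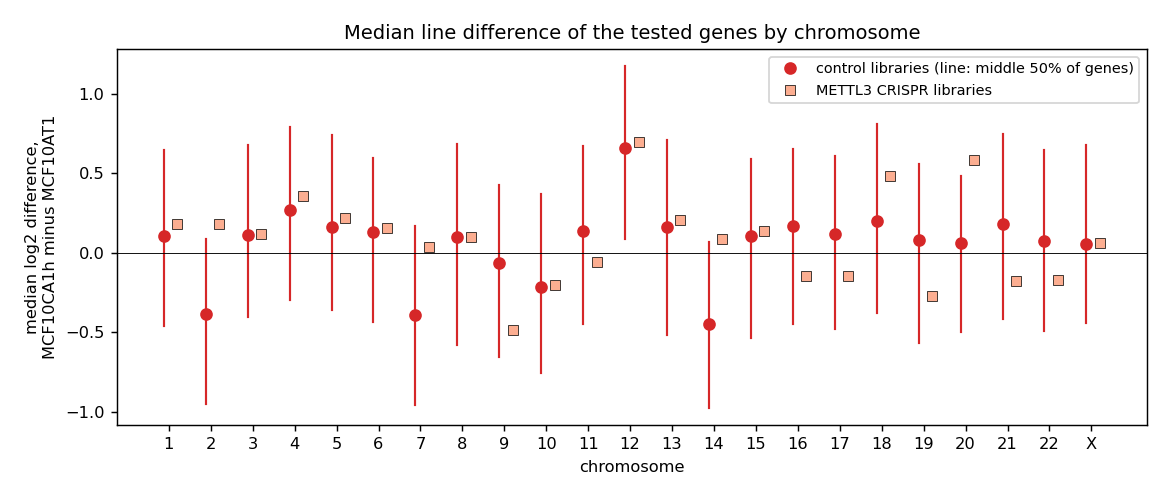
Median log2 difference (MCF10CA1h minus MCF10AT1) of the tested genes of each chromosome, with red points for the control libraries, red lines from the first to the third quartile of genes and squares for the METTL3 CRISPR libraries. Chromosome 12 is high in both sets (0.662 and 0.697), while chromosomes 2, 7 and 14 are low in the control libraries (-0.385, -0.391 and -0.446) and above 0 in the METTL3 CRISPR libraries.

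EMD has a neighbour that fell with it. On the X chromosome (GRCh38) FLNA, which encodes the actin crosslinker filamin A, lies at 154348524 to 154374634 and EMD at 154379273 to 154381574. FLNA, named after its values were seen, had 15285, 21996 and 10433 in MCF10AT1 and 534, 575 and 396 in MCF10CA1h (log2 difference -4.94 ± 0.31 SE, adjusted p = 0.00034). RPL10, the nearest tested protein-coding gene beyond EMD, did not pass the test (-0.69, adjusted p = 0.18). In the METTL3 CRISPR clones EMD was at or below 3.31 in all 6 libraries, and FLNA was at 646, 737 and 1001 in MCF10AT1 and 394, 710 and 577 in MCF10CA1h. MCF10A controls had EMD at 1533, 1065 and 1182 and FLNA at 24494, 25786 and 33426. Both genes were thus high in control MCF10AT1 and MCF10A cells and low in the METTL3 CRISPR MCF10AT1 clone and both MCF10CA1h clones.

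The METTL3 CRISPR clones give another comparison of the same lines with no library in common. There the lines differed in 6255 genes (40.1%), 3282 higher (21.1%) and 2973 lower (19.1%) in MCF10CA1h. Of the 2830 genes called in the controls, 1284 (45.4%) were called in the same direction and 282 (9.96%) in the opposite one, and these 1284 were 20.5% of the METTL3 CRISPR list. The contrast itself differed between both sets of clones in 887 of the 2830 (31.3%), and in 2228 of all genes tested (14.3%, interaction in limma). The 2830 were chosen by the control contrast, which is part of the interaction, so a larger share among them was favoured by the choice.

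Some differences were shared. HMGN2P5, TENM2, CDH19, GPX2 and SAMSN1 were the called genes with the largest difference in both sets. CDH19 was at 467, 348 and 467 in METTL3 CRISPR MCF10CA1h cells and at 1.57, 3.40 and 0.84 in METTL3 CRISPR MCF10AT1 cells (log2 difference 7.27, adjusted p = 6.5e-05). GPX2 was at 253, 295 and 177 against 3.92, 1.13 and 0, and TENM2 at 870, 667 and 759 against 11.3, 1.05 and 1.30. SAMSN1, an adaptor protein, had 3.12, 0 and 5.57 against 230, 229 and 130 in the controls (5.99 ± 0.73 SE), and its difference was 5.78 in the METTL3 CRISPR clones. Mitosis genes gave 17 higher and none lower of 43 there, with a median of 1.45, and the contrast differed in 1 of them. KIF20A and PLK1 did not pass the test there (adjusted p = 0.094 for each, limma), while KIF23, CCNA2 and ESPL1 did. S phase genes gave 19 higher and none lower of 40, with a median of 1.09, and the contrast differed in none. Beside these counts, 21.1% of all genes tested were higher in that contrast and 19.1% lower. A contrast that was not called different is not thereby shown to be equal, with 3 libraries per group.

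Others were not shared. Epithelial genes gave 26 higher and 2 lower of 35 in the METTL3 CRISPR contrast, against 0 and 15 in the controls, and the contrast differed in 30. CDH1 was at 11.6, 31.7 and 79.2 in METTL3 CRISPR MCF10AT1 cells and at 4179, 3927 and 4028 in METTL3 CRISPR MCF10CA1h cells, beside 2974 to 4148 in the MCF10CA1h controls. RAB25 was at 2.02, 1.76 and 4.5 in METTL3 CRISPR MCF10AT1 and at 0.77, 0 and 0 in METTL3 CRISPR MCF10CA1h, and CLDN7 at 9.95, 11.6 and 14.9 and at 6.42, 32.3 and 26.9. FN1 was at 55947, 65869 and 134507 in METTL3 CRISPR MCF10AT1 and at 9157, 14083 and 12135 in METTL3 CRISPR MCF10CA1h, so that it was lower in MCF10CA1h there (-2.77). Mesenchymal genes gave 2 higher and 13 lower of 27 in that contrast. Interferon-stimulated genes, split in the controls, gave 31 higher and 4 lower of 39 in it, with a median of 2.96. Their contrast differed between the sets of clones in 27 of the 39. CDH1, RAB25 and CLDN7 were thus all high in the control MCF10AT1 clone and all low in the METTL3 CRISPR MCF10AT1 clone, and whether METTL3 or the choice of clone set this apart was not tested.

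**Figure D4:**
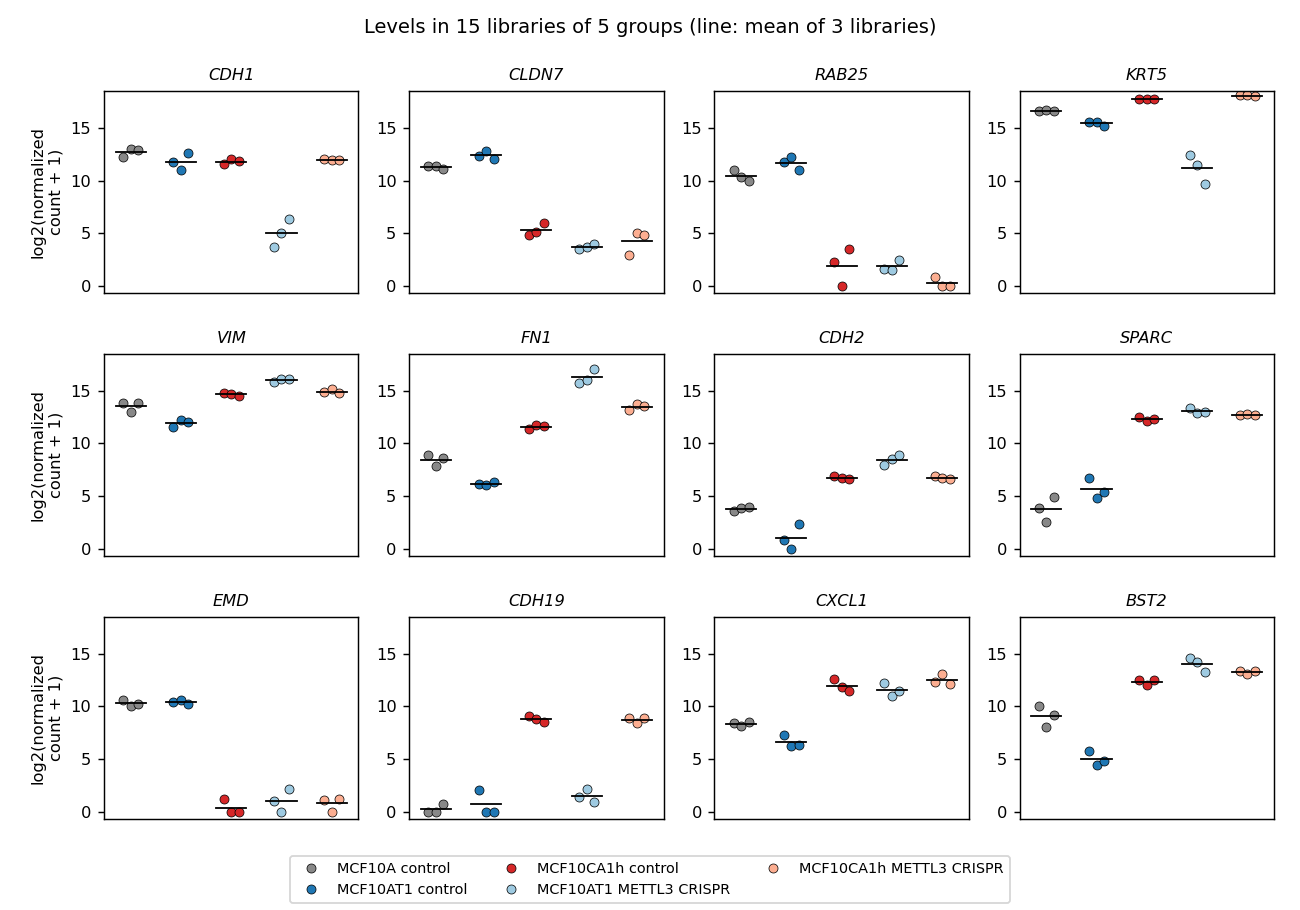
Levels of 12 genes as log2(normalized count + 1) in 15 libraries, with 1 point per library, a line at the mean of 3 libraries and 1 colour per group. The MCF10AT1 groups lie far apart in CDH1, KRT5, FN1 and EMD, and the MCF10CA1h groups lie closer together than they do in each of these 4 genes.

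The 5 called genes with the largest difference between the contrasts were FABP4, TMEM265, CADM3, PRSS8 and LCP1. CADM3, an immunoglobulin-type adhesion molecule, had 0, 1.81 and 1.72 in control MCF10AT1 cells and 83.8, 115 and 145 in control MCF10CA1h cells (log2 difference 5.84 ± 0.58 SE). In the METTL3 CRISPR clones CADM3 was at 7779, 11305 and 19143 in MCF10AT1 and at 173, 144 and 137 in MCF10CA1h (-6.29). LCP1, the actin-bundling protein L-plastin, had 2890, 3611 and 2766 against 60.1, 97.7 and 69.0 in the controls (-5.35 ± 0.26), and 3.29, 24.2 and 25.6 against 422, 766 and 391 in the METTL3 CRISPR clones (5.14). TMEM265 was lower in control MCF10CA1h cells (-4.58) and higher in the METTL3 CRISPR contrast (7.72). FABP4 was at 7527, 2705 and 647 in METTL3 CRISPR MCF10AT1 cells and at 96.2, 118 and 56.5 in METTL3 CRISPR MCF10CA1h cells (-4.76).

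**Figure D5:**
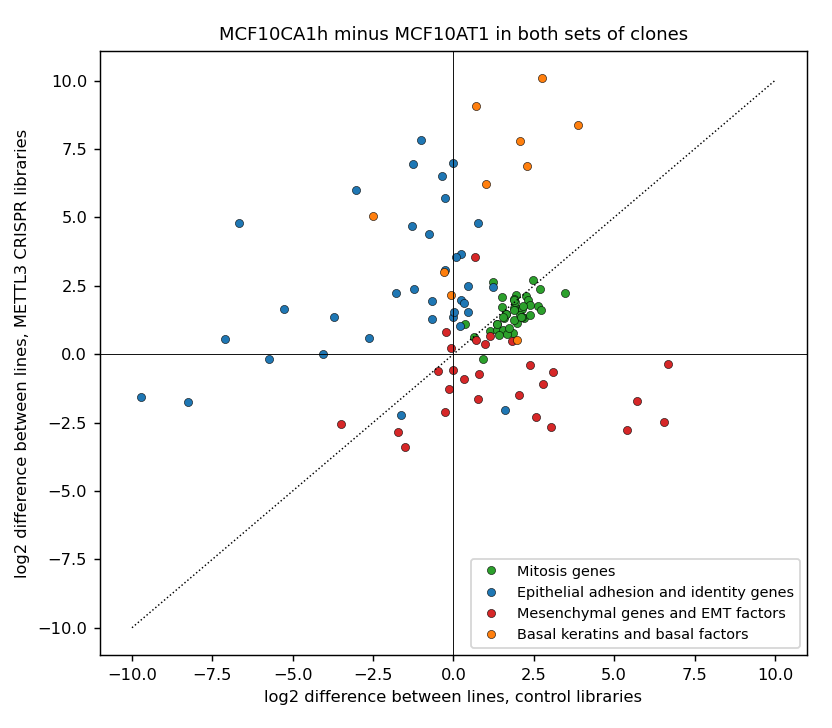
Log2 difference between MCF10CA1h and MCF10AT1 in the control libraries (x axis) and in the METTL3 CRISPR libraries (y axis), with 1 point per gene of 4 lists and a dotted line of equal values. Mitosis genes lie near the dotted line, most epithelial and basal keratin genes lie above it and most mesenchymal genes below it.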

How the data were processed

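RNA of 18 libraries was sequenced as stranded paired reads. Per the study's methods, which name rRNA depletion where the labels name polyA RNA, the authors quantified transcripts with kallisto 0.46.1 against hg38, summed them to genes with tximport 1.20.0 and normalized with DESeq2 1.26.0 in R 4.1.1; the annotation release is not given in the sources used here. The deposited values are a normalized signal per gene (counts over size factors), not per length, from which whole reads could not be recovered, so no count test was run and the depth is unknown. The table held 60579 rows, 35933 of them with values.

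Genes averaging 10 or more in the 6 libraries were tested on log2(value + 1) with limma 3.58.1 (intensity trend, R 4.3.3), with p-values adjusted over all 15585 genes. Fold changes of low genes are understated on this scale. It takes 1 variance per gene for both lines. When tested on simulated data with the unequal spread of the lines, it made more false calls than the threshold allows, as did, to a lesser degree, the test with a variance per line named below. Coordinates and symbols came from GENCODE 44 (35894 of the genes matched). The alternatives were other pseudocounts, filters, scalings and thresholds, other libraries in the fit, a replicate block, and leaving out each library in turn. A test with the variance of each line moderated on its own was added after seeing the data. Named were the 12 largest rises and 12 largest falls among called genes averaging 50 or more whose groups did not overlap, up to 5 called members of each list by size of the difference, members the study names, the cell type markers, and the 5 called genes that differed most between the control and METTL3 CRISPR contrasts and the 5 with the largest shared difference. Further genes were named after their values were seen, to describe a list. Results of some genes are not reported here. Members and lists were chosen with earlier results of these data known.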

Additional observations from a re-analysis of the deposited data

Results flagged for a closer look

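The contrast of MCF10CA1h against MCF10AT1 differed between the control and the METTL3 CRISPR clones in 2228 genes by a test of the difference itself (interaction in limma, adjusted p under 0.05). Among the genes named above, the differences below are those of the control contrast minus the METTL3 CRISPR contrast on the log2 scale, and they depend on the pseudocount wherever a group lay near 0.

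Of the genes with the largest falls in control MCF10CA1h cells, the difference was -9.79 for EMD, -8.17 for RAB25, -6.93 for KRTCAP3, -6.51 for GRHL2, -8.02 for SLC6A11 and -7.11 for PROM2. It was -7.54 for ZNF558, -8.22 for LINC02635, -6.51 for TMEM30B, -7.40 for ACMSD, -7.65 for CLDN7 and -7.45 for RBBP8NL. These 12 genes were chosen for their fall in the controls, so a smaller fall in the METTL3 CRISPR clones was favoured by the choice. SLC6A11, LINC02635, CLDN7 and RBBP8NL did not fall there at all (0.19, 0.66, 0.55 and 0.37).

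Of the genes with the largest rises, the difference was 8.35 for NES, 7.43 for GJA1, 9.12 for CSF3, 13.10 for FABP4, 4.52 for CCND2, 6.43 for GALNT5, 8.10 for BST2 and 8.86 for ELFN1-AS1. They were chosen for their rise in the controls, so a smaller rise in the METTL3 CRISPR clones was favoured by the choice. TMEM265 (-12.30), CADM3 (12.13), PRSS8 (-11.48) and LCP1 (-10.50), chosen for the size of this difference, had opposite directions in both contrasts, as FABP4 did. CDH19, TENM2, GPX2 and HMGN2P5 were the largest rises in which the difference did not pass the test. Groups held 3 libraries each, too few for a test of single libraries that stand apart.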

How the results depend on the processing

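None of the 176 named genes called with all libraries changed direction under any alternative, and 101 kept the call under every one. Without a call, CDH1 had differences of 0.11 with equal sums, 0.0 with median-of-ratios factors, 0.39 without MCF10AT1 replicate c and 0.12 without MCF10CA1h replicate a (-0.39 to 0.39 over the fits without 1 library), and ALKBH5 had -0.1 without MCF10AT1 replicate c (-0.1 to 0.2). Libraries of MCF10AT1 and MCF10CA1h shared only a letter: the deviations of same-letter libraries correlated at 0.0574, -0.256 and -0.288, and the replicate block gave 1209 called genes, 642 higher and 567 lower, and 8 interferon-stimulated genes. An adjusted p under 0.01 gave 915 called genes, 504 higher and 411 lower, with 9 epithelial, 7 mesenchymal, 9 collagen and matrix, 6 interferon-stimulated, 11 chemokine, 14 S phase and 23 mitosis genes. Collagen and matrix genes numbered 9 with a mean of at least 50, and mitosis genes 15 with the 9 negative control libraries. Leaving out 1 library gave 844 to 5965 called genes, 436 to 3284 higher and 408 to 2681 lower. In those fits the lists had 19 to 42 mitosis, 13 to 37 S phase, 9 to 20 epithelial, 7 to 21 mesenchymal, 9 to 24 collagen and matrix, 5 to 21 interferon-stimulated and 12 to 28 chemokine genes. With the spread estimated per line, chosen after seeing the data, 2299 genes were called, 1124 higher and 1175 lower, 12 named genes lost their call and none changed direction. The other alternatives gave 2329 to 3887 called genes. With equal sums per library 59.0% of the calls were higher, against 52.5%. Depth limits low genes, since the reads behind a value are not known. By library, the calls numbered 1254, 3874 and 5965 without MCF10AT1 replicate a, b and c and 906, 844 and 1016 without MCF10CA1h replicate a, b and c. The cause of these shifts was not tested.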

Other observations

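Of 23 hemidesmosome and basement membrane genes 6 were higher and 3 lower, and 3 of the collagens among them were higher. COL4A1 had normalized counts of 114, 103 and 253 in control MCF10AT1 cells and 730, 1018 and 708 in control MCF10CA1h cells (log2 difference 2.48 ± 0.38 SE, adjusted p = 0.0061, limma), and its partner chain COL4A2 had 700, 1253 and 695 against 3937, 3683 and 3412 (2.11 ± 0.27). COL7A1, the collagen of anchoring fibrils, had 1319, 1596 and 1078 against 3660, 3314 and 4237 (1.5 ± 0.22). COL17A1, COL4A5 and COL4A6 did not pass the test (-0.58, 0.06 and -0.55). The laminin chains were split, with LAMA1 and LAMC1 higher and LAMB2, LAMB1 and LAMA5 lower, each call lost without MCF10AT1 replicate a or any MCF10CA1h library and that of LAMA5 also without MCF10AT1 replicate b. Of 17 integrin chains ITGB6 alone passed the test (5.88% called, against 18.2% of all genes tested). It had 1426, 1072 and 2122 against 601, 811 and 480 (-1.26 ± 0.32), a call lost without MCF10AT1 replicate a or any MCF10CA1h library.

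Of 28 genes of amino acid and unfolded protein stress 2 were higher and 1 lower (10.7% called, against 18.2% of all genes tested). ASNS, asparagine synthetase, had 5063, 10703 and 5654 in MCF10AT1 and 895, 705 and 777 in MCF10CA1h (-3.09 ± 0.31, adjusted p = 0.0013), and it was lower in the METTL3 CRISPR clones as well (-3.27). ATF4, its activator, did not pass the test (-0.67, adjusted p = 0.14). Of 30 NRF2 targets 4 were higher and 1 lower (16.7% called, against the same 18.2%). UGT1A6, which can share reads with other UGT1A genes, had 107, 39.8 and 103 against 903, 1120 and 998 (3.70 ± 0.40), and ABCC3, an export pump, had 4914, 6378 and 5789 against 1859, 1721 and 1707 (-1.68 ± 0.185). HMOX1 (0.23) and GCLC (0.46) did not pass the test. Of 40 axon guidance genes 7 were higher and 6 lower (32.5% called, against the same 18.2%). SLIT3 (3.76), NTN1 (3.02) and EFNB1 (1.49) were higher and EPHA1 (-2.29) and SEMA3B (-1.93) lower in every fit without 1 library.

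Of 24 glycolysis genes 4 were higher and none lower (16.7% called, against 18.2% of all genes tested). SLC2A1, the glucose transporter GLUT1, had 1718, 1927 and 2525 against 5221, 4793 and 5085 (1.31 ± 0.21). Of 32 genes of cholesterol and fatty acid synthesis 5 were higher and 1 lower (18.8% called, against 18.2% of all genes). All these calls were lost when MCF10CA1h replicate a was left out. Of 21 metastasis suppressor and promoter genes 8 were higher and 2 lower, and ARHGDIB (1.77), on chromosome 12, was called in every fit without 1 library. Of 18 stem cell surface and ALDH genes 4 were higher and 4 lower, with THY1 and CD24 called in every such fit. Of 14 S100 genes S100A3 and S100A4 were lower (14.3%, against 18.2% of all genes called in either direction). Both calls were lost without MCF10AT1 replicate a or any MCF10CA1h library, and 6 members were lower without MCF10AT1 replicate c. Of 9 kallikrein-related peptidases 2 were higher and 2 lower (44.4% called, against 18.2% of all genes), and KLK10 had 74.1, 128 and 83.1 against 494, 573 and 1471 (3.0 ± 0.45).

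Of the markers of other cell types, 3 endothelial genes were tested, with 1 higher and 1 lower, 4 leukocyte genes, with none called, and 4 adipocyte genes, with 2 higher and 1 lower. Their part in the results above was not tested.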
